A study of Arabidopsis thaliana with 21 samples.

Results

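The 46 genes described here are the chloroplast-encoded subunits, assembly factors and Rubisco large subunit of photosynthesis, from ATCG00020 (psbA) to ATCG01110 (ndhH). They were taken by gene ID from the 33341 loci counted, with no rule on a measured value, though earlier results of these data were known. They comprise 15 genes of photosystem II, 5 of photosystem I, 2 photosystem I assembly factors (ycf3, ATCG00360, and ycf4, ATCG00520), 6 of the cytochrome b6f complex, 6 of ATP synthase, 11 of the NDH complex, and rbcL (ATCG00490). All 46 passed the filter on low counts. The plants were Arabidopsis thaliana, accession Col-0, whose rosettes were taken at 21 days, raised on soil at 22 °C with days of 16 h and nights of 8 h. High light of 500 µE was given for 2, 5 or 8 h (T2H, T5H and T8H), standard light of 100 µE for 2, 5 or 8 h (T2L, T5L and T8L), and a dark group was taken at the end of the night, at 0 h (T0D). Each of the 7 groups had 3 libraries, 21 in all, harvested as biological triplicates per the series' design text; no allele or agent other than light differed between groups, and the sources used here do not say how many plants made up a sample. Total RNA was depleted of plant ribosomal RNA (rRNA), and strand-specific libraries were read as single ends of 75 bases, so transcripts without a poly(A) tail, as in chloroplasts, were counted.

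Chloroplasts keep a small circular genome in many copies per cell. Its photosynthesis genes are read mainly by a bacterial-type RNA polymerase encoded in the chloroplast, which takes its sigma factors and its associated proteins from the nucleus. Most of the genes lie in operons, and their long precursors are cut, spliced, edited and protected by nuclear-encoded RNA-binding proteins, so that the level of a chloroplast transcript depends on processing and stability as well as on transcription.

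Sequences are given for the genes on which the results turn, from the RefSeq plastid sequence of TAIR10.1. The first pair shows 30 bases upstream of psbA (ATCG00020), the most abundant member, and of ndhF (ATCG01010), which fell at 2 h of high light; the capitals mark the hexamer TTGACA, the consensus of the upstream element of bacterial-type promoters. The psbA stretch is Pltd:1530-1559 and the ndhF stretch Pltd:112835-112864, both read from the minus strand.
psbA: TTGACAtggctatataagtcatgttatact
ndhF: TTGACAgtaacttagtaatattttttaatc
In the windows of 300 bases around each gene start (250 before to 50 after), TTGACA was present on either strand in 6 of 46 members (13.0%) and in 15 of 85 plastid protein-coding genes (17.6%). The hexamer TATAAT, the consensus of their downstream element, was present in 22 of 46 members (47.8%) and in 36 of 85 plastid protein-coding genes (42.4%). A window was counted once per hexamer, whatever the number or overlap of matches, and a match describes letters, not a promoter.

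The next 3 coding sequences belong to the short genes whose levels differed most between libraries; capitals mark the first and the last codon. The gene psbN (ATCG00700, Pltd:74249-74380, minus strand, 132 bases) encodes a protein needed to assemble photosystem II and lies on the strand opposite to its neighbours psbT (Pltd:74082-74183) and psbH (Pltd:74485-74706). Counting used the strand, so reads of the psbB operon were not given to psbN. The genes psaI (ATCG00510, Pltd:59247-59360, plus strand, 114 bases) and petL (ATCG00590, Pltd:65712-65807, plus strand, 96 bases) encode small subunits of photosystem I and of cytochrome b6f.
psbN: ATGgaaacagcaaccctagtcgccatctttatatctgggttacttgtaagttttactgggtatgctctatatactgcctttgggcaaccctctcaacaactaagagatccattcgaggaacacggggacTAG
psaI: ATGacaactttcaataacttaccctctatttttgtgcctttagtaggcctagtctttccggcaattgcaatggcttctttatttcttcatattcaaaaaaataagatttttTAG
petL: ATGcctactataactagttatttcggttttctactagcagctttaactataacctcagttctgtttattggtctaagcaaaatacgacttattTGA
These genes are little longer than a read. The 12 members of up to 150 bases had a median within-group SD of 0.74 on the log2 scale, against 0.34 for the 34 longer members.

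Libraries held 6545003 to 31449700 counts (median 13592728), and since no pair of replicates was as alike as sampling noise alone would make it, each library was taken as 1 sample. Of the leaf markers, RBCS1A (the Rubisco small subunit) reached 2411 to 10577 RPKM over all libraries, where RPKM means reads per kilobase of the counted gene span, per megaread of TMM-scaled library size. Of the 4 root markers, 2 passed the filter (PYK10, 1.85 to 9.14 RPKM, and SCR, 0.533 to 5.71 RPKM); of the 4 flower markers, PI and AG passed and stayed at or under 0.619 RPKM; none of the 3 seed markers passed. In these bulk samples, fewer chloroplast-rich cells and less chloroplast RNA per cell cannot be told apart. At 5 h, where the members' median was below 0, the leaf markers RBCS1A (log2 fold change of T5H over T5L 1.08), CA1 (1.26) and GLDP1 (1.25) rose and LHCB1.1 stood at -0.20. At 8 h (T8H over T8L) GLDP1 rose (0.77), LHCB1.1 fell (-1.33), and CA1 (0.66) and RBCS1A (-0.26) were not called. In T5L over T0D, RBCS1A (-1.09), CA1 (-1.18) and LHCB1.1 (-1.59) fell and GLDP1 (0.32) was not called. These markers thus changed with light and time themselves, and cell composition was not tested.

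Libraries stood apart in their remaining rRNA. By replicate 1, 2 and 3, rRNA took 0.385%, 0.138% and 5.28% of the counts in T2H, against 17.9%, 13.9% and 4.89% in T2L. At 5 h it took 0.335%, 0.118% and 33.4% in T5H, against 2.32%, 3.14% and 4.91% in T5L. At 8 h it took 19.7%, 26.8% and 24.8% in T8H, against 4.49%, 9.23% and 4.01% in T8L, and in T0D it took 2.16%, 9.94% and 0.213%. T5H replicate 3 therefore had the highest rRNA share of all libraries, beside 2 T5H libraries among the lowest, and at 8 h the high-light and standard-light groups did not overlap. In a within-group slope fitted over all groups together, 12 of 46 members rose with each doubling of the rRNA share and 0 fell. The test was edgeR at an adjusted p below 0.05, by which 1.53% of all loci rose, and 43 member slopes were above 0. T5H spanned the widest range of rRNA shares, and no slope without its replicate 3 is given. Single groups differed. The members' share of protein-coding counts, given below, was highest at the highest rRNA share in T2H and T5H. It was lowest there in T0D, T2L, T8L and T8H. The median slope of the members was 0.10 on the log2 scale per doubling, against 0.00 for all loci, 0.09 for 36 plastid housekeeping genes and -0.09 for 31 nuclear-encoded photosynthesis subunits, of which 14 fell. Whether the rRNA share accounts for the differences between groups given next was not tested beyond the values stated beside them.

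The members held a large part of the transcriptome of these leaves. Of all counts in protein-coding genes, they took 39.0%, 29.4% and 40.7% in T2H and 36.2%, 41.2% and 47.2% in T2L; 21.3%, 26.9% and 44.8% in T5H and 45.6%, 48.7% and 47.4% in T5L; and 43.2%, 42.2% and 44.8% in T8H and 48.2%, 47.4% and 48.9% in T8L. In T0D they took 41.3%, 33.5% and 35.3%. The 3 T5H and the 3 T8H libraries each lay below all 3 libraries in standard light of the same time, whereas at 2 h the groups overlapped. With 3 libraries against 3, an exact two-sided permutation test cannot go below 0.10, so no p is given for these shares. As group means the share was 36.4% ± 6.07 in T2H against 41.5% ± 5.48 in T2L, 31.0% ± 12.3 in T5H against 47.2% ± 1.52 in T5L, and 43.4% ± 1.3 in T8H against 48.2% ± 0.734 in T8L, with 36.7% ± 4.07 in T0D (SD, n = 3 each). The large SD of T5H came from replicate 3, the library with 33.4% rRNA.

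**Figure D1:**
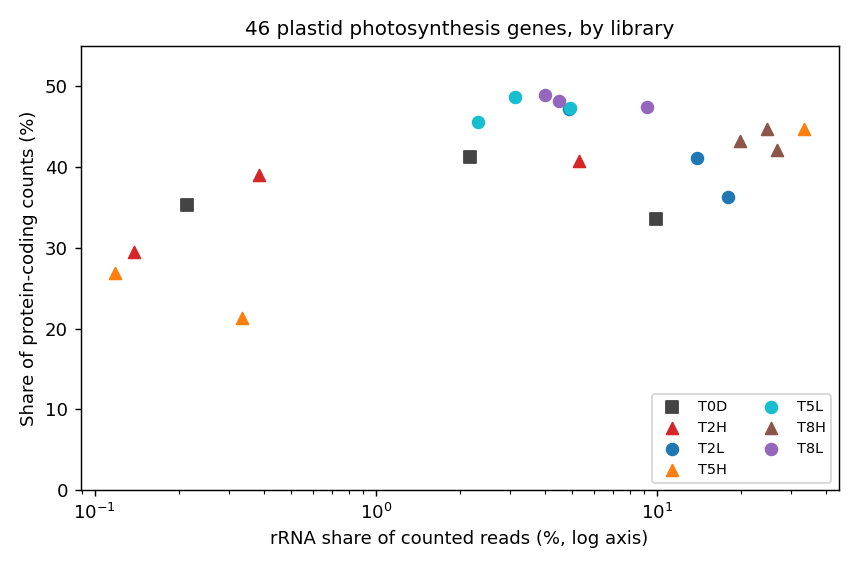
The share of protein-coding counts taken by the 46 members (percent, vertical) is plotted against the rRNA share of all counts (percent, log scale, horizontal), with 1 point per library coloured by group. The T5H libraries with 0.335% and 0.118% rRNA lie lowest, at 21.3% and 26.9%, and the T5H library with 33.4% rRNA lies at 44.8%, near the T8H libraries.

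Most of this RNA came from psbA, which encodes the D1 protein of the photosystem II reaction centre, and rbcL, the Rubisco large subunit. Together they made up 54.3% to 72.6% of the members' counts in a library, with psbA at 20.7% to 43.9% and rbcL at 24.98% to 36.8%. By level per length, averaged over 21 libraries, the order began with psbA at 118830 RPKM, rbcL at 73246 RPKM, psaJ at 34170 RPKM and psbJ at 25065 RPKM, both small photosystem subunits. It ended with ndhH at 463 RPKM, ndhF at 350 RPKM and ndhB (ATCG00890) at 95.0 RPKM, all of the NDH complex, which carries electrons from ferredoxin back to plastoquinone. The level of ndhB, which has 2 copies in the inverted repeat, depends on how reads matching both copies were counted and is uncertain. Of the members' counts, photosystem II took 46.3% in T2H and 43.5% in T2L, 45.3% in T5H and 51.9% in T5L, and 46.6% in T8H and 50.2% in T8L, beside 44.3% in T0D. The NDH complex took 2.70% in T2H and 4.54% in T2L, 2.53% in T5H and 2.30% in T5L, and 3.79% in T8H and 2.55% in T8L, beside 2.38% in T0D. Between the lowest and the highest library, the level of psbN spanned 25.5-fold, petL 21.7-fold, psaI 19.2-fold and psaJ 18.1-fold, all of them short genes, whereas atpH, the membrane ring subunit of ATP synthase, spanned 1.65-fold and ndhJ 1.60-fold.

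**Figure D2:**
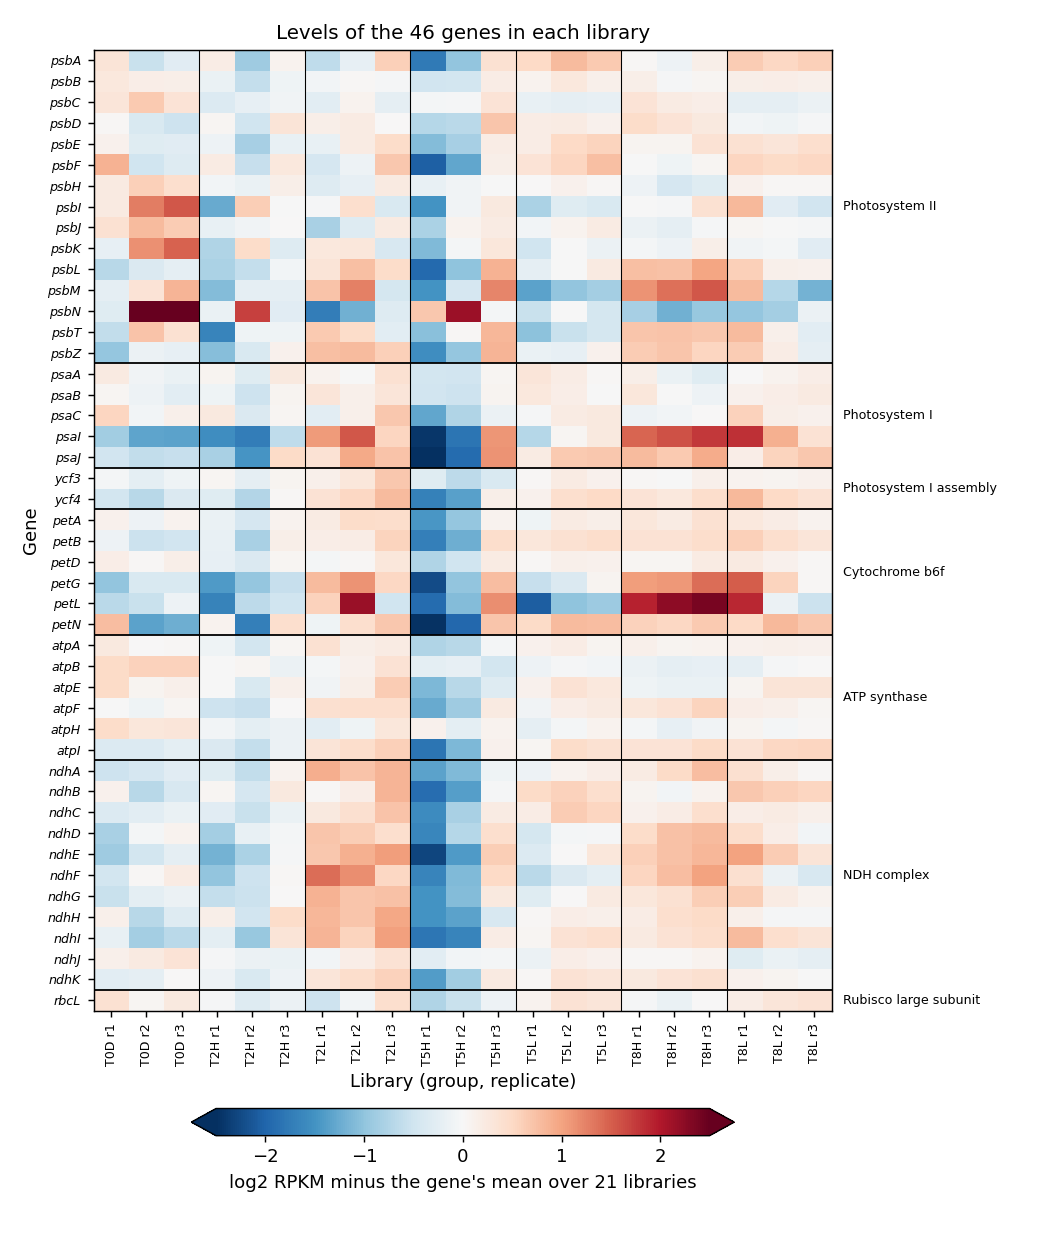
Each row is 1 of the 46 members, grouped by complex, and each column 1 library, grouped by light and time; colour gives the log2 level relative to the member's mean over the 21 libraries, clipped at -2.5 and 2.5. In the T5H columns, replicates 1 and 2 are low for most members while replicate 3 is the highest of the T5H libraries for 42 of 46.

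The comparison of high with standard light at the same time asks what the extra light did to these transcripts. At 2 h, the NDH genes ndhA, ndhF and ndhG fell and no member rose. These 3 of 46 members (6.52%) compare with 1.22% of all loci that fell. Levels of ndhA (ATCG01100), a membrane subunit, were 879, 706 and 1150 RPKM in T2H, against 2049, 1774 and 1958 RPKM in T2L. Levels of ndhF, another membrane subunit, were 155, 215 and 311 RPKM in T2H, against 811, 689 and 439 RPKM in T2L. Levels of ndhG (ATCG01080), also of the membrane arm, were 924, 973 and 1409 RPKM in T2H, against 2555, 2278 and 2340 RPKM in T2L. For all 3 genes the 3 T2H libraries lay below the 3 T2L libraries, with T2H replicate 3, the one with the most rRNA of its group, the highest of T2H. The log2 fold changes were -1.08 ± 0.26 for ndhA (SE, edgeR adjusted p = 0.0265), -1.51 ± 0.40 for ndhF (adjusted p = 0.0463) and -1.12 ± 0.30 for ndhG (adjusted p = 0.0467). As means, T2H stood at 912 RPKM for ndhA, 227 RPKM for ndhF and 1102 RPKM for ndhG, against 821, 295 and 1132.5 RPKM in T0D. None of these 3 genes was called between T2H and T0D. The same 3 T2L libraries also enter the comparison of T2L with T0D given below.

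The other complexes gave no call at 2 h. The median log2 fold change was -0.90 over the 11 NDH genes, -0.64 over ycf3 and ycf4, -0.53 for cytochrome b6f, -0.41 for photosystem I, -0.37 for ATP synthase and -0.15 for photosystem II. Over all 46 members it was -0.52, against 0.00 for all loci, and 43 of the 46 fold changes were below 0. At an unadjusted p below 0.05 there were 19 members, 9 of them NDH genes. The lowest values were those of psaI at -2.33 ± 0.71 (adjusted p = 0.0956) and petL at -2.01 ± 0.83 (adjusted p = 0.217), and the highest were those of psbN at 1.70 ± 0.73 (adjusted p = 0.232) and psbJ at 0.16 ± 0.25 (adjusted p = 0.789). Among the large subunits, psbA had 123630, 58653 and 115600 RPKM in T2H, against 70632, 94840 and 164640 RPKM in T2L, and its groups overlapped (log2 fold change -0.15 ± 0.40, adjusted p = 0.891). Levels of rbcL were 70177, 57360 and 64582 RPKM in T2H, against 50194, 68574 and 95672 RPKM in T2L, again with overlap (-0.16 ± 0.25, adjusted p = 0.786). The core genes psbB, psbD, psaA, psaB, petA, petB, atpA, atpB and ndhB lay between -0.54 (petB) and -0.12 (psbD), with adjusted p from 0.29 (petA) to 0.87 (psbD). With the rRNA share as a covariate, 0 members were called and 0.667% of all loci were; ndhA was then at -0.71 (adjusted p = 0.156), ndhF at -0.91 (adjusted p = 0.302) and ndhG at -0.64 (adjusted p = 0.297). With all groups fitted without T5H replicate 3, 16 members were lower (34.8%, against 2.26% of all loci), 9 of them NDH genes.

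At 5 h, 9 members fell and none rose: ndhA, ndhB, ndhC and ndhH of the NDH complex, atpE and atpI of ATP synthase, psbE of photosystem II, and both photosystem I assembly genes. These 9 of 46 (19.6%) compare with 4.74% of all loci that fell. Levels of ndhH (ATCG01110), of the stromal arm of NDH, were 152, 170 and 325 RPKM in T5H, against 438, 481 and 467 RPKM in T5L. Levels of atpE (ATCG00470), the epsilon subunit of the catalytic head, were 2381, 3179 and 4156 RPKM in T5H, against 5584, 6603 and 6230 RPKM in T5L. Levels of ycf3, which helps to assemble photosystem I, were 451, 352 and 430 RPKM in T5H, against 570, 646 and 604 RPKM in T5L. In these 3 genes every T5H library was below every T5L library, and the log2 fold changes were -1.10 ± 0.26 for ndhH (edgeR adjusted p = 0.0071), -0.92 ± 0.23 for atpE (adjusted p = 0.01) and -0.56 ± 0.18 for ycf3 (adjusted p = 0.0406). The ndhB gene also had its T5H libraries apart, at 23.2, 33.5 and 85.3 RPKM, against 122, 130 and 117 RPKM in T5L (-1.38 ± 0.33, adjusted p = 0.00929).

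For the remaining 5 called members, replicates 1 and 2 of T5H were far lower than replicate 3. Levels of psbE (ATCG00580), a subunit of cytochrome b559, were 3427, 4084 and 8272 RPKM in T5H, against 8280, 10275 and 10668 RPKM in T5L. Levels of ndhC (ATCG00440) were 423, 712 and 1445 RPKM in T5H, against 1425, 1957 and 1811 RPKM in T5L. Levels of atpI (ATCG00150), a membrane subunit of ATP synthase, were 478, 774 and 1812 RPKM in T5H, against 1757, 2327 and 2206 RPKM in T5L. Replicate 3 lay just below the T5L range for psbE and inside it for ndhC and atpI, while replicates 1 and 2 lay below all T5L libraries. Levels of ycf4, the other assembly gene, were 569, 720 and 2032 RPKM in T5H, against 1966, 2464 and 2588 RPKM in T5L, and ndhA had 427, 508 and 1015 RPKM in T5H, against 991, 1162 and 1226 RPKM in T5L. Both again had replicate 3 inside the T5L range. The log2 fold changes were -0.89 ± 0.27 for psbE (adjusted p = 0.0324), -1.01 ± 0.28 for ndhC (adjusted p = 0.0183), -1.04 ± 0.29 for atpI (adjusted p = 0.0225), -1.08 ± 0.32 for ycf4 (adjusted p = 0.0262) and -0.79 ± 0.26 for ndhA (adjusted p = 0.0488).

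The same split ran through the members that were not called. Levels of psbA were 32230, 55261 and 142940 RPKM in T5H, against 154770, 189360 and 170730 RPKM in T5L. All T5H libraries lay below T5L, with a wide spread among the T5H values, and the log2 fold change was -1.16 ± 0.40 (adjusted p = 0.0606). Levels of rbcL were 42276, 48588 and 65675 RPKM in T5H, against 75715, 91403 and 88317 RPKM in T5L, without overlap (-0.71 ± 0.25, adjusted p = 0.0624). Levels of psaJ were 3376, 7444 and 61183 RPKM in T5H, against 32238, 44139 and 45002 RPKM in T5L, so that replicate 3 lay above and replicates 1 and 2 below. Levels of ndhF, which fell at 2 h, were 98.1, 143 and 430 RPKM in T5H, against 192, 237 and 259 RPKM in T5L (-0.04 ± 0.39, adjusted p = 0.965). Levels of psbD (ATCG00270), the D2 reaction-centre protein, were 2802, 2887 and 7392 RPKM in T5H, against 5199, 5281 and 4942 RPKM in T5L (-0.24 ± 0.29, adjusted p = 0.632). The core genes psbB, psaA, psaB, petA, petB, atpA and atpB were between -0.89 (petB, adjusted p = 0.102) and -0.23 (atpB, adjusted p = 0.463). Beside ndhB, the lowest member was psbF at -1.32 ± 0.43 (adjusted p = 0.0514), and the highest were psbN at 1.54 ± 0.73 (adjusted p = 0.186) and psbM at 1.23 ± 0.62 (adjusted p = 0.212). The medians were -0.82 for the assembly genes, -0.76 for NDH, -0.59 for ATP synthase, -0.55 for cytochrome b6f, -0.45 for photosystem I and -0.14 for photosystem II, and -0.49 over all members against 0.02 for all loci.

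The count at 5 h differed without T5H replicate 3. That library was below all T5L libraries for 12 members, above all of them for 20 and inside their range for 14, while replicates 1 and 2 were below all T5L libraries for 36 of 46. Without it, 34 members fell (73.9%, against 11.9% of all loci): 10 of 11 NDH genes, 7 of 15 of photosystem II, all 5 of photosystem I, both assembly genes, 5 of 6 of cytochrome b6f, 4 of 6 of ATP synthase and rbcL. The median of the members was then -1.17, psbA was at -2.0 (adjusted p = 0.000465), and the furthest were psaJ at -2.93 and petN, a small cytochrome b6f subunit, at -2.90. With the rRNA share as a covariate and all libraries, 17 members fell (37.0%, against 4.52% of all loci). With only T5H and T5L in the fit and all 6 libraries, edgeR called 0 members and 4% of all loci.

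**Figure D3:**
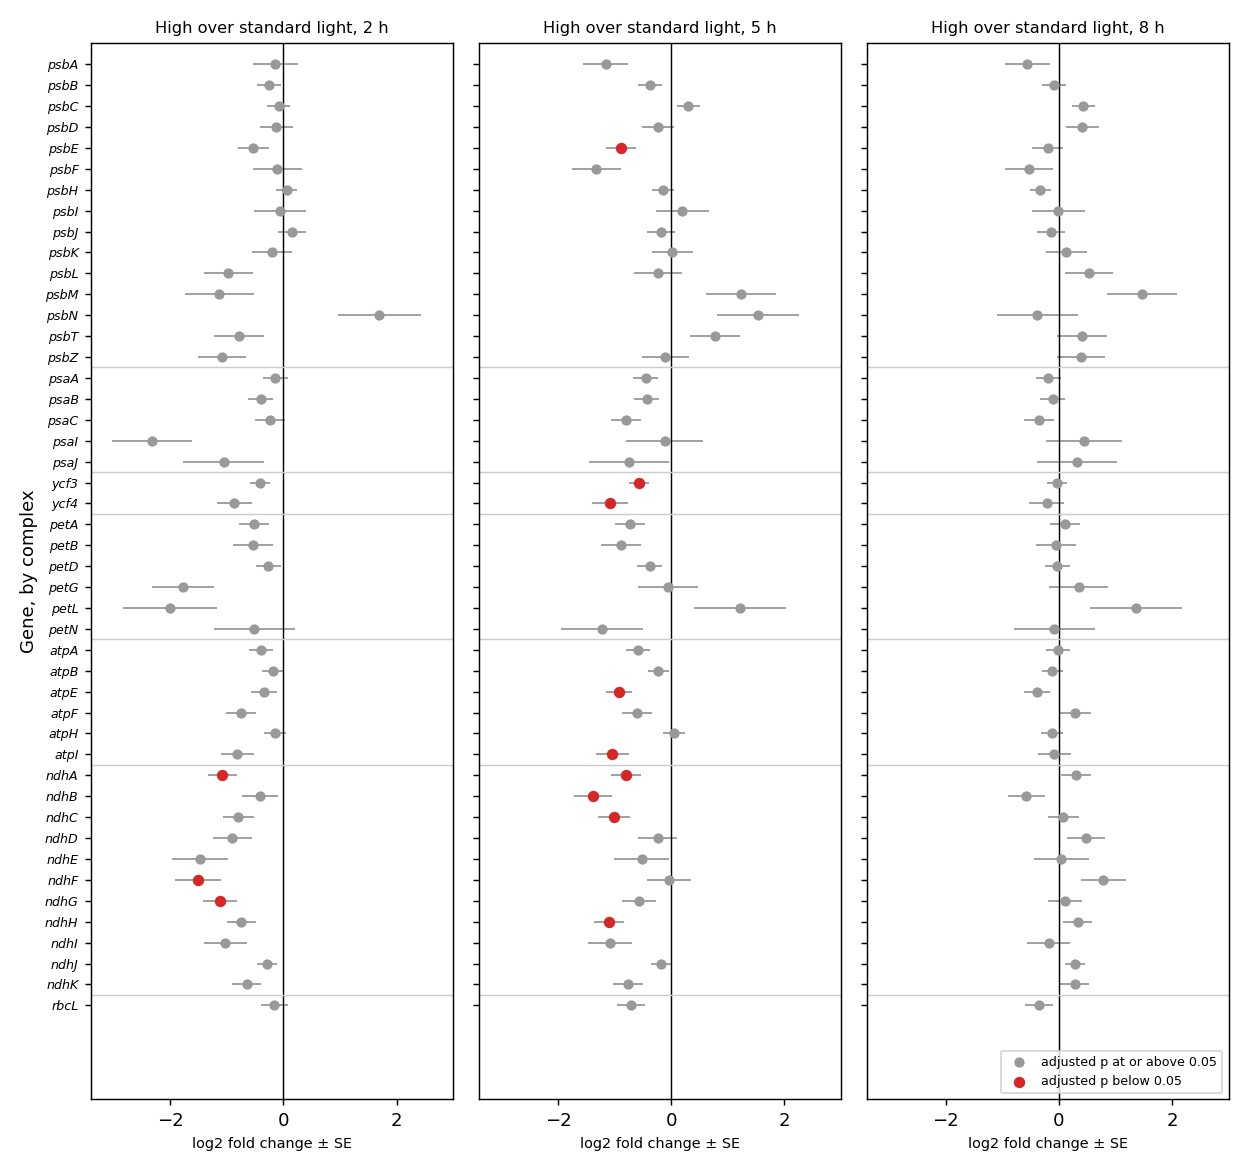
The log2 fold change of high over standard light (horizontal, with bars of 1 SE) is drawn for each of the 46 members at 2, 5 and 8 h, grouped by complex, with red points for adjusted p below 0.05 and grey points otherwise. Red points are found at 2 h (ndhA, ndhF, ndhG) and 5 h (9 members), all left of 0, and there are none at 8 h.

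The calls at 2 and 5 h depended on the scaling. With TMM factors from the plastid protein-coding loci alone, the median of all loci moved to 0.65 at 2 h and to 0.82 at 5 h, so that values are then relative to the chloroplast transcriptome and not to the leaf. On that scale 1 member rose at 2 h (psbN, 2.49; 18.8% of all loci rose) and 2 fell (psaI, -1.76, and petG, -1.16; 0.26% of all loci fell). At 5 h on that scale, 6 members rose (psbN, psbM, petL, psbT, psbC and atpH; 39.9% of all loci rose) and 2 fell (psbF, -0.86, and ndhB, -0.88; 0.902% of all loci fell), and the member median was 0.14. Of the 3 NDH genes called at 2 h, none remained called, and ycf3 changed its sign at 5 h to 0.25.

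At 8 h edgeR called 0 members between T8H and T8L, while 15.4% of all loci were called in either direction. Only psbM and psbC had an unadjusted p below 0.05, DESeq2 called 1 member and limma voom 0. Levels of psbA were 111900, 100220 and 120420 RPKM in T8H, against 170270, 156210 and 163820 RPKM in T8L, without overlap, and a log2 fold change of -0.56 ± 0.40 (adjusted p = 0.389). Levels of rbcL were 70031, 63823 and 71952 RPKM in T8H, against 81283, 88507 and 92469 RPKM in T8L, also without overlap (-0.35 ± 0.25, adjusted p = 0.384). Levels of ndhF were 442, 522 and 612 RPKM in T8H, against 403, 275 and 234 RPKM in T8L, with all T8H libraries above (0.79 ± 0.39, adjusted p = 0.194). The 2 groups thus did not overlap in these 3 genes, although none was called with the spread estimated over all 7 groups. With only T8H and T8L in the fit, 9 members rose and 6 fell, psbA (-0.53) and ndhF (0.82) among them, while 36.2% of all loci were called.

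Across the complexes at 8 h, the median log2 fold change was 0.28 for NDH, with 9 of 11 genes above 0, and -0.01 over all members, against -0.03 for all loci. The highest were psbM at 1.47 ± 0.62 (adjusted p = 0.127) and petL at 1.37 ± 0.82 (adjusted p = 0.3), and the lowest were ndhB at -0.58 ± 0.33 (adjusted p = 0.258) and psbA. The core genes psbB, psbD, psaA, psaB, petA, petB, atpA and atpB lay between -0.18 (psaA, adjusted p = 0.655) and 0.42 (psbD, adjusted p = 0.37).

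The high-light effect was also compared between times. Between 2 and 5 h no member differed by edgeR, against 0.759% of all loci; 7 had an unadjusted p below 0.05, and DESeq2 and limma voom called 0. The value of ndhF was 1.47 ± 0.56 (adjusted p = 0.232), so that its fall at 2 h was not shown to differ from its value at 5 h. Between 5 and 8 h, ndhH differed, with an effect higher at 8 h by 1.44 ± 0.36 (adjusted p = 0.0381), 1 of 46 members (2.17%) beside 0.601% of all loci that were higher. Levels of ndhH were 487, 571 and 595 RPKM in T8H, against 466, 421 and 421 RPKM in T8L, and fell at 5 h as given above. The difference was above 0 for 41 of 46 members, with a median of 0.56, and without T5H replicate 3 it was called for 26 members (56.5%, against 6.34% of all loci that were higher). The call of ndhH was kept in 1 of 12 fits with a library left out, the one without T5H replicate 3, with values from 1.27 to 1.91.

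The comparison with darkness asks how the transcripts stood after light compared with the end of the night. All 6 light groups were set against the same 3 T0D libraries, so that a value peculiar to T0D enters each of them. Of the 46 members, 17 were higher in at least 1 light group (37.0%, against 40.9% of all loci), 15 were lower in at least 1 (32.6%, against 39% of all loci; ndhH was called both ways), and 15 were called in none (32.6%, against 24.4% of all loci): psbA, psbB, psbD, psbE, psbF, psbM, psbT, psaA, psaB, psaJ, petB, petD, petN, atpF and ndhK. The genes of the reaction-centre proteins D1, D2, PsaA and PsaB were thus all among those with no call. Levels of psbA were 136190, 73919 and 89138 RPKM in T0D. All T5L libraries (154770 RPKM or more) and all T8L libraries (156210 RPKM or more) lay above these, while the other light groups overlapped T0D. For psbD, all T5L libraries (4942 RPKM or more) and all T8H libraries (5417.5 RPKM or more) lay above T0D (4675 RPKM or less). A gene with no call could thus lie apart from T0D in single groups.

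After 2 h of standard light, 13 members rose (28.3%, against 21.1% of all loci) and 4 fell (8.70%, against 21.4%). Of the 13, 7 were NDH genes (ndhA, ndhC, ndhE, ndhF, ndhG, ndhH and ndhI), and the NDH median was 1.08, against 0.37 for all members and 0.03 for all loci. The rise was not particular to NDH: of 36 plastid housekeeping genes, 25 rose and 2 fell in T2L over T0D, with a median of 0.94. Levels of ndhA were 2049, 1774 and 1958 RPKM in T2L, against 756, 815 and 891 RPKM in T0D. Levels of ndhF were 811, 689 and 439 RPKM in T2L, against 222, 314 and 351 RPKM in T0D, and ndhH had 766, 694 and 837 RPKM in T2L, against 468, 266 and 341 RPKM in T0D. In all 3 genes the T2L libraries lay above the T0D libraries, and the log2 fold changes were 1.23 for ndhA (adjusted p = 0.000572), 1.13 for ndhF and 1.09 for ndhH (adjusted p = 0.0014). Both assembly genes rose as well (ycf3 by 0.51 and ycf4 by 1.07 on the log2 scale), as did psaI, petG, psbZ and atpI. The rRNA share was higher in T2L than in T0D as a mean, 12.2% ± 6.66 against 4.11% ± 5.15 (SD, n = 3 each). With it as a covariate, 7 members rose (15.2%, against 19.7% of all loci), ndhA, ndhG, ndhH and ndhI among them, and 4 fell (19.5% of all loci fell).

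After 5 h of standard light, 2 members rose (ycf4 and ndhC; 22.9% of all loci rose) and 5 fell (psbN, psbI, psbK, psbC and atpB; 23.8% of all loci fell). After 8 h, 6 rose (ycf4, psaI, ndhI, ndhB, atpI and petG; 21.1% of all loci rose) and 5 fell (psbN, psbK, psbC, atpB and ndhJ; 21.7% of all loci fell). The shares of members that rose and fell were 4.35% and 10.9% at 5 h and 13.0% and 10.9% at 8 h. The share that rose depended on the fit: with all groups fitted without T5H replicate 3, 28.3% of members rose at 5 h (24.3% of all loci) and 34.8% at 8 h (22.7%), and with only the groups compared it was 32.6% at both times (27% and 24.2% of all loci). Medians over the members were 0.22 at both times.

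In high light no member rose above darkness at 2 h, while 5 fell (psbC, psbJ, psbK, atpB and atpH; 10.9%, against 21.5% of all loci). At 5 h, again none rose and 11 fell (23.9%, against 22.8% of all loci): psbH, psbI, psbJ, psbK, psaC, petA, atpA, atpB, atpE, ndhH and rbcL. Without T5H replicate 3, 35 members fell (76.1%, against 23.3% of all loci). At 8 h, 10 rose (21.7%, against 23.4% of all loci) and 5 fell (10.9%, against 23.9%); the share that rose was 43.5% (25.7% of all loci) with all groups fitted without T5H replicate 3, and 45.7% (25.9%) with only T8H and T0D in the fit. Of the 10, 5 were NDH genes (ndhA, ndhD, ndhE, ndhG and ndhH), with an NDH median of 0.75 against 0.37 for all members; the others were psaI, petG, petL, psbL and ycf4. Of 36 plastid housekeeping genes, 12 rose and 4 fell in T8H over T0D, with a median of 0.59. Levels of ndhA were 1254, 1511 and 1844 RPKM in T8H, against 756, 815 and 891 RPKM in T0D, above all of them. The rRNA share of the T8H libraries, 19.7% to 26.8%, was also above that of every T0D library, and with the rRNA share as a covariate 1 member rose (psaI; 20.2% of all loci rose) and 6 fell (20.4% of all loci fell).

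**Figure D4:**
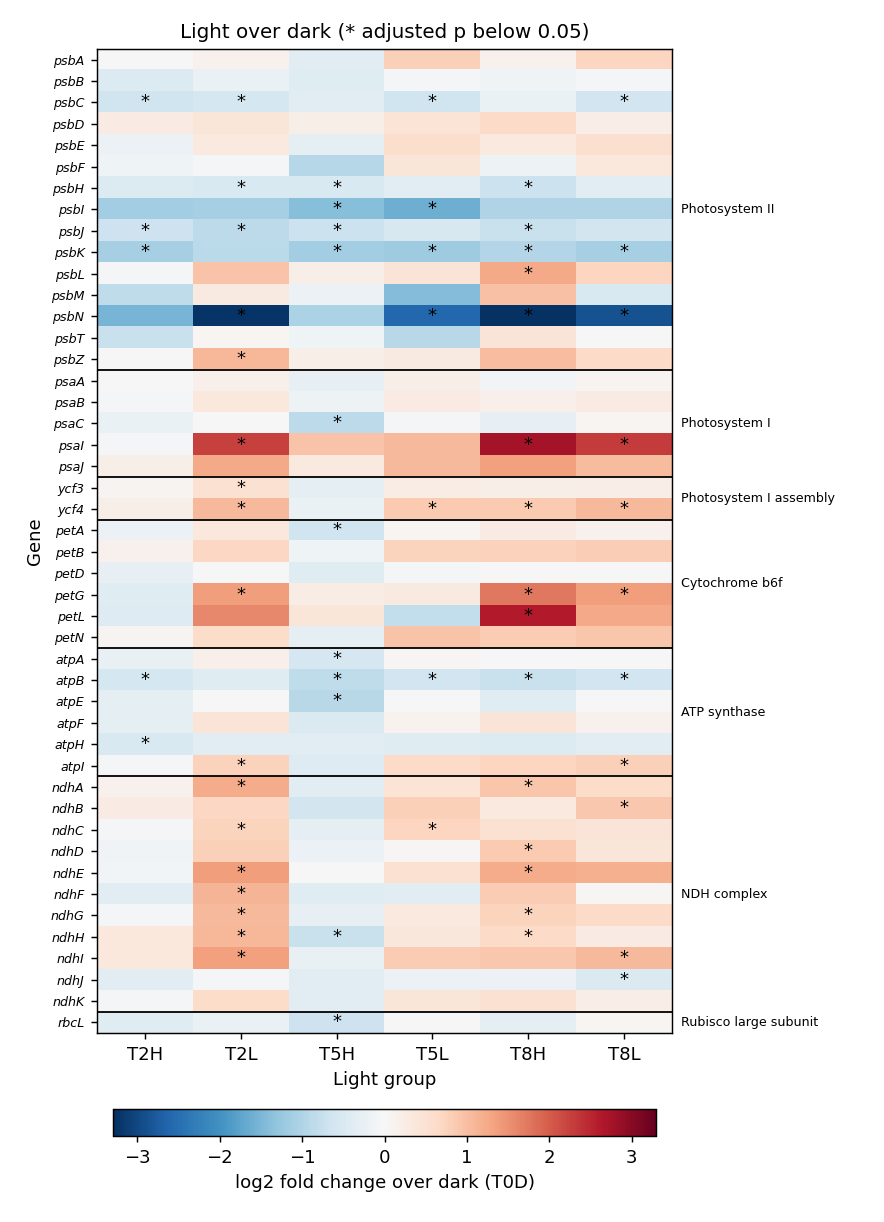
Colour gives the log2 fold change of each of the 6 light groups over darkness for the 46 members, grouped by complex, and asterisks mark adjusted p below 0.05. The NDH block is highest in T2L and T8H, and atpB is marked low in every group but T2L.

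The gene furthest below darkness was psbN. In standard light it had 1421, 2057 and 3803 RPKM at 2 h, 3235, 4666 and 3477.5 RPKM at 5 h, and 2413, 2616 and 4281 RPKM at 8 h, against 3818, 36257 and 27937 RPKM in T0D. In high light it had 4208.5, 15485 and 3897 RPKM at 2 h, 7502, 20955 and 4580 RPKM at 5 h, and 2644, 2057 and 2439 RPKM at 8 h. T0D replicates 2 and 3 were above every light library, but T0D replicate 1 was level with many of them, so that only T2L and T8H lay wholly below T0D. The log2 fold changes over T0D were -3.22 ± 0.78 in T2L (adjusted p = 0.00338), -2.58 ± 0.75 in T5L (adjusted p = 0.0106), -2.87 ± 0.76 in T8L (adjusted p = 0.00659) and -3.25 ± 0.78 in T8H (adjusted p = 0.00273). In T2H (-1.53, adjusted p = 0.104) and T5H (-1.04, adjusted p = 0.254) it was not called. The 4 calls were kept when any 1 library of the 2 groups was left out. T0D replicate 1 also stood apart for petN, at 18278 RPKM beside 4246 and 4650.5 RPKM in the other two, and for psbK, at 1767 RPKM beside 4479 and 5640 RPKM.

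The psbK-psbI pair, small photosystem II subunits from neighbouring genes, fell together in T5L, by 1.17 and 1.60 on the log2 scale, and in T5H, by 1.15 and 1.40. The first of them, psbK (ATCG00070), also fell in T2H by 1.08, in T8L by 1.10 and in T8H by 0.97. T0D replicate 1, the low library of that group, lay within the range of the light groups for psbK.

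The longer genes atpB and psbC were also lower in light. Levels of atpB (ATCG00480), the beta subunit of ATP synthase, were 3462, 3611 and 3159 RPKM in T2H, 2956, 3032 and 2562 RPKM in T5H and 3158, 2996 and 3022 RPKM in T8H. It had 3389, 3778 and 4491 RPKM in T2L, 3214, 3445 and 3337 RPKM in T5L and 3004, 3421 and 3540 RPKM in T8L, against 4874, 5232 and 5248 RPKM in T0D. All 18 light libraries thus lay below all 3 dark libraries, across rRNA shares from 0.118% to 33.4%, and the gene fell in every light group except T2L, by 0.59 (T2H) to 0.84 (T5H) on the log2 scale. Levels of psbC (ATCG00280), the CP43 antenna protein of photosystem II, were 7441, 8226 and 8830.5 RPKM in T2H and 7877, 10016 and 8109 RPKM in T2L, against 11694, 14856 and 12040 RPKM in T0D. It lay below T0D in those groups and fell by 0.66 in T2H, 0.57 in T2L, 0.66 in T5L and 0.64 in T8L on the log2 scale, but was not called in T5H or T8H. On the plastid scaling, the decrease of psbC was called in T2L (-1.13), T5L (-0.87) and T8L (-0.92) and that of atpB in T2L (-0.96), T8L (-0.90) and T8H (-1.05). On that scale 0 members were called in T2H and in T5H against T0D. The median of all loci was then 0.11 in T2H and 0.58 in T5H, against -0.10 and 0.04 for the members. The 84 loci used for this scaling include the members, so a shift common to them is largely removed by it.

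Among the genes that rose, the small subunits psaI, petG and petL showed the widest range. Levels of psaI were 8445, 9284 and 10494 RPKM in T8H and 6475, 9111 and 4505 RPKM in T2L, against 1708.5, 1241 and 1224 RPKM in T0D. It had 11056, 5719 and 3959 RPKM in T8L, and all 9 of these light libraries lay above T0D. Its log2 fold changes were 2.76 ± 0.72 in T8H (adjusted p = 0.00519), 2.27 ± 0.71 in T2L (adjusted p = 0.0174) and 2.31 ± 0.71 in T8L (adjusted p = 0.0156). At 5 h in high light it had 577, 873 and 6648 RPKM, with replicate 3 again apart. Levels of petL were 4269, 5308.5 and 5864 RPKM in T8H, against 712, 772 and 1039 RPKM in T0D (2.61 ± 0.85, adjusted p = 0.0201), and petG (ATCG00600), its neighbour, had 2029, 2095 and 2601 RPKM in T8H, against 497, 764 and 759 RPKM in T0D (1.74). In T8L, petL ranged more widely, at 4182.5, 1018 and 780 RPKM, and was not called.

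**Figure D5:**
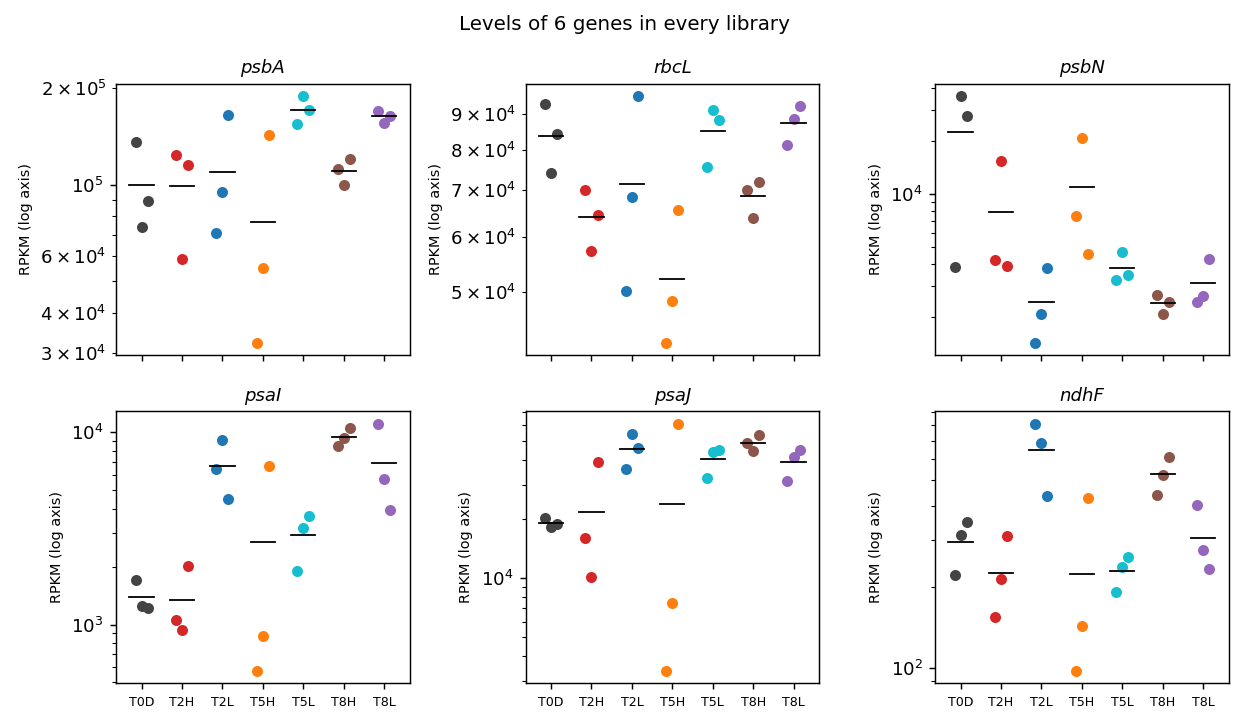
The level in RPKM (log axis) of psbA, rbcL, psbN, psaI, psaJ and ndhF is shown for each library as a point, by group, with lines at the group means. T5H replicate 3 (the right-hand point of the group) lies above the other T5H libraries for psbA, rbcL, psaI, psaJ and ndhF and below them for psbN.

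The genes that transcribe and process these transcripts were compared in the same fits, by list. Of all loci, 1.22% fell at 2 h, 7.29% rose and 4.74% fell at 5 h, and 7.79% rose and 7.62% fell at 8 h. Of 36 plastid housekeeping genes (polymerase, ribosomal and other subunits), 6 fell at 2 h and 10 at 5 h, with none higher, and 6 rose at 8 h, with none lower. The falls at 2 and 5 h were thus not limited to the photosynthesis genes, of which 3 and 9 of 46 fell. The genes rpoB, rpoC1 and rpoC2, core subunits of the bacterial-type polymerase, fell at 2 h by 0.81, 0.87 and 0.92 on the log2 scale, and at 8 h they rose by 0.87, 0.70 and 0.73. At 5 h they were not called. Another core subunit gene, rpoA, was not called at 2 h (-0.73) or 8 h (-0.01) and fell at 5 h (-0.92). Of 8 nuclear genes for sigma factors and phage-type polymerases, SIG1 fell at 2 h (-0.92), 4 rose at 5 h and 5 rose at 8 h. SIG5, the light-responsive sigma factor known to act at psbD, averaged 15.9 RPKM in T5H against 4.48 RPKM in T5L and 3.91 RPKM in T8H against 1.62 RPKM in T8L, with log2 fold changes of 1.82 ± 0.24 (adjusted p = 3.53e-05) and 1.25 ± 0.26 (adjusted p = 0.00162), while psbD was not called at either time. In T5H, SIG5 ran from 11.6 to 20.4 RPKM and in T8H from 3.31 to 4.86 RPKM, so that all T5H libraries lay above all T8H libraries for this gene. Whether T5H replicate 3 resembled T8H over all genes was not tested. Of 12 proteins associated with the chloroplast polymerase, 0 were called at 2 h (1 at an unadjusted p below 0.05), 5 rose at 5 h and 10 rose at 8 h, PAP6 by 1.83 at 8 h. Of 10 nuclear RNA factors with chloroplast targets, 1 fell at 2 h (PGR3, -0.82), 1 rose at 5 h (HCF152, which processes the psbB operon, 1.58), and at 8 h 5 rose (HCF152 again by 1.58) and 1 fell (HCF173, a factor for psbA translation, -0.82), with a median of 0.61. Of 31 nuclear-encoded subunits of the same complexes, 0 were called at 2 h (12 at an unadjusted p below 0.05), 4 rose and 2 fell at 5 h, and 1 rose and 10 fell at 8 h. At 2 h, 29 of the 31 fold changes were above 0, with a median of 0.35. The 4 that rose at 5 h were the Rubisco small subunit genes RBCS1A, RBCS1B, RBCS2B and RBCS3B, and the 1 that rose at 8 h was RBCS2B. No nuclear-encoded subunit of the photosystems, cytochrome b6f or ATP synthase rose at either time.

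The authors' deposited table, which lists genes past a minimum fold that is not stated, names members only against darkness. It lists ndhA, ndhH, ndhI, psaI and psbN in T2L, psbI and psbN in T5L, psaI and psbN in T8L, and petG, petL, psaI and psbN in T8H. In the authors' deposited table psbN stands at a log2 fold change of -3.22 in T2L, and no member stands among the 24, 307 and 603 genes listed for high against standard light at 2, 5 and 8 h.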

How the data were processed

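The authors' deposited counts are raw whole numbers from featureCounts 1.5.0-p1, run, per the file headers, reverse-stranded over a span for each gene from start to end, so that intron reads entered the 6 members with introns. Tools in the submitters' processing notes are Subread 1.5.0, edgeR, SAMtools 1.3.1, Trim Galore 0.4.4 and FastQC 0.11.7; neither the build nor the alignment settings are given in the sources consulted. The authors' log2 RPKM table was not used. From the authors' deposited table of comparisons (log2 fold change, average log2 CPM and FDR-adjusted p-value), the listing of members and their log2 fold changes were taken. Of the 46 members, 43 had the same span in RefSeq TAIR10.1; ycf3, ndhB and ndhD did not, and no coordinate is printed for them.

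Here the quasi-likelihood test of edgeR 4.0.16 (R 4.3.3, TMM) was fitted to all 21 libraries with a coefficient for each group. After filterByExpr, 19626 loci remained, and Benjamini-Hochberg adjustment ran over these within each contrast. Rose and fell mean an adjusted p below 0.05, and all adjusted p are from this test. Each SE was obtained from a log2 fold change and its F statistic. The rRNA share is the share of counts in 15 rRNA loci of nucleus, chloroplast and mitochondrion. Its slope was fitted with group as a factor. Alternatives were no filter, other TMM sets, the rRNA share as covariate, a replicate block, limma 3.58.1 (voom), DESeq2 1.42.0, only the groups compared, and each library left out; the plastid scaling with the covariate, and fits of the other groups without T5H replicate 3, were chosen after seeing the data. The steps were tested on simulated data.

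Replicate numbers do not pair the samples and were not used. The overlaps of psbD with psbC (53 bases) and atpB with atpE (4 bases) share reads. With 75-base reads, counts of the shortest genes rest on few read positions. For each contrast of high and standard light, the text names the members called, those furthest up and down, and psbA, psbB, psbD, psaA, psaB, petA, petB, atpA, atpB, ndhB, ndhF and rbcL; in the comparisons with darkness, members called and examples were chosen after their values were seen. The members and gene lists were chosen with earlier results of these data known, and every p-value reflects only how these samples varied.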

Additional observations from a re-analysis of the deposited data

Results flagged for a closer look

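The high-light effect on ndhH differed between times by the test of the difference itself. It was higher at 8 h than at 5 h by 1.44 ± 0.36 on the log2 scale (edgeR, adjusted p = 0.0381), with levels of 487, 571 and 595 RPKM in T8H against 466, 421 and 421 RPKM in T8L, and of 152, 170 and 325 RPKM in T5H against 438, 481 and 467 RPKM in T5L. The call was kept in 7 of 21 alternatives and lost in 14, among them 11 of the 12 fits with a library left out (values of 1.27 to 1.91); only the fit without T5H replicate 3 kept it. With the rRNA share as a covariate the difference was 1.16 and was not called. The rRNA share was 19.7% to 26.8% in T8H, against 4.01% to 9.23% in T8L, and 0.118% to 33.4% in T5H. The T5H library with 33.4% had ndhH at 325 RPKM, above the other T5H libraries (152 and 170 RPKM) and below every T5L library. Whether the rRNA share accounts for the difference was not tested beyond the covariate fit.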

How the results depend on the processing

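Counts of called members are given in the order T2H, T5H and T8H over standard light (3, 9 and 0 as reported), then T2L, T5L, T8L, T2H, T5H and T8H over dark (17, 7, 11, 5, 11 and 15), then the difference between 2 and 5 h (0) and between 5 and 8 h (1); alternatives are given where a count moved by more than 1.5 times, and the cause was not tested. Without a filter the counts were 17, 16 and 3 over standard light, 13 for T5L and 17 for T8L over dark, and 7 and 3 for the differences. With TMM on nuclear protein-coding loci the count at 2 h was 1. With TMM on plastid protein-coding loci it was 11 for T2L over dark, 0 for T2H and 0 for T5H over dark and 0 for the difference between 5 and 8 h. With the rRNA share as a covariate it was 0 at 2 h and 17 at 5 h, 11 for T2L, 8 for T2H, 17 for T5H and 7 for T8H over dark, and 0 for the difference between 5 and 8 h. With the plastid TMM and the covariate together it was 0 at 2 h, 2 for T5H and 6 for T8H over dark, and 0 for the difference between 5 and 8 h. By limma voom it was 19 at 5 h and 3 for the difference between 5 and 8 h. By DESeq2 it was 7, 15 and 1 over standard light, 12 for T5L and 9 for T2H over dark, and 2 for the difference between 5 and 8 h. With only the groups compared it was 5, 0 and 15 over standard light, and 24 for T5L, 21 for T8L, 1 for T5H and 27 for T8H over dark. With the other groups fitted without T5H replicate 3, an alternative chosen after seeing the data, it was 16 for T2H and 2 for T8H over standard light, and 21 for T5L, 22 for T8L and 26 for T8H over dark.

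With the replicate number as a block the count at 5 h was 15; same-numbered libraries did not deviate together (correlations of -0.144 to 0.0929), so the numbers do not pair the samples. Leaving out 1 library at a time gave 0 to 3, 1 to 34 and 0 to 1 over standard light, 7 to 14 for T2L, 4 to 8 for T5L, 3 to 12 for T8L, 1 to 7 for T2H, 2 to 35 for T5H and 6 to 12 for T8H over dark, and 0 to 6 and 0 to 26 for the differences. Without psbA, the members' share was 28.8% in T0D, 27.1% in T2H, 32.4% in T2L, 23.7% in T5H, 33.9% in T5L, 33.6% in T8H and 35.4% in T8L. The T5H value had an SD of 7.90. As a share of all counted reads it was 33.9% in both T2H and T2L, so that the lower mean in T2H was not seen, 24.3% in T5H against 43.7% in T5L, 30.2% in T8H against 43.0% in T8L, and 33.5% in T0D. All counted reads include the rRNA, so this share also moves with the rRNA left in a library. The mean rRNA share was 1.93% in T2H and 12.2% in T2L, 11.3% in T5H and 3.45% in T5L, and 23.8% in T8H and 5.91% in T8L. Signs reversed for ycf3 in T5H over T5L (0.25 with the plastid TMM, 0.074 with the covariate added), for ycf3 in T2L over T0D (-0.054) and for psbH in T5H over T0D (0.048), both with the plastid TMM. Among 1249 values of single members under the alternatives, 845 kept their direction and their side of the threshold and 400 lost the call. Replicates of a group differed by 8.21 to 539 times the sampling variance (chi-square per degree of freedom over genes), so that the spread between libraries limited the precision more than depth did. The highest values, 346 and 539, were those of T5H replicate 3 with the other T5H libraries, which differed widely in rRNA share. How much of these values came from rRNA was not tested.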
